A study of Mus musculus with 16 samples.

Results

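The 40 genes described here encode the heat shock proteins, the chaperonin CCT/TRiC and prefoldin, which were taken from the 54392 rows of the count table by gene symbol. They fall into 9 stress-induced chaperones, 12 constitutive cytosolic chaperones and cochaperones, 4 mitochondrial chaperones, 2 heat shock factors, 8 subunits of CCT/TRiC and 5 subunits of prefoldin. Of the 40, 39 passed the filter on low counts. The exception was Hspb8, a small heat shock protein, which had 1 to 10 reads per library.

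Chaperones bind unfolded proteins and help them fold, and most families hold members that are always made and members that are made on demand. Heat, oxidants or misfolded protein free heat shock factor 1 from its chaperone partners, and it then binds heat shock elements in front of genes such as Hspa1a, Hspa1b, Hspb1, Dnajb1 and Hsph1. CCT/TRiC is a chamber of stacked rings that folds actin and tubulin, prefoldin hands these chains to it, and Hspd1 with Hspe1 form the corresponding chamber in the mitochondrion.

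RNA was sequenced from samples labelled as colonocytes, the absorptive epithelial cells of the colon, of C57BL/6 mice with no other genetic change named. The animals ate corn oil with cellulose (9 libraries) or fish oil with pectin (7 libraries) for 3 weeks, so that fat and fibre changed together and cannot be told apart. Library names begin with GC in 10 cases, 5 of each diet, and lack that prefix in 6, of which 4 are corn oil/cellulose and 2 fish oil/pectin. No source used here gives the meaning of the prefix, the age and sex of the mice or the way cells were isolated.

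The heat shock element is built of inverted GAA units. In the 250 bases before each start listed by RefSeq (GRCm38.p6), the facing pairs GAANNTTC and TTCNNGAA were searched. Each reads the same on the other strand. At least 1 such pair stood before 11 of the 32 members with a promoter entry (34.4%), against 14.5% of all 27025 genes with an entry. By class, the pair was found in 5 of 8 stress-induced chaperones, 2 of 9 constitutive, 2 of 3 mitochondrial, 2 of 7 CCT/TRiC and 0 of 4 prefoldin genes. The stress-induced genes with an entry but no pair were Dnajb1, Bag3 and Hspb8. The triple of alternating units, GAANNTTCNNGAA or TTCNNGAANNTTC, contains overlapping pairs and was found for Hspd1, Hspe1 and Dnajb6, or 9.38% of members against 0.514% of all genes. Hspd1 and Hspe1 match through the same bases, and Hspa1a and Hspa1b have nearly identical ones, so the member matches are not independent. The windows below are shown because the genes behind them gave the largest differences between libraries (Hspa1a, Hspa1b, Hspb1) or share 1 element (Hspd1, Hspe1), and capitals mark the matched pairs and triples. A match is a description of the letters, not a measured binding site.
Hspa1a, chr17:34972233-34972280, minus strand: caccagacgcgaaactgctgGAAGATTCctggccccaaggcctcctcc
Hspa1b, chr17:34959315-34959362, minus strand: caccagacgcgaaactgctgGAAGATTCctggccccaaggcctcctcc
Hspb1, chr5:135887782-135887849, plus strand: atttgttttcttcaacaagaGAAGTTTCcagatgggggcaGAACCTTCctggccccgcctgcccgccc
Hspe1, chr1:55088053-55088082, plus strand: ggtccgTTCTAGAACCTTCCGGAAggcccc
Hspd1, chr1:55088053-55088082, minus strand: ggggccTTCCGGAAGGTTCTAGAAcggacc

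Hspa1a and Hspa1b carried the same window, and 247 of the 250 bases before their starts were identical. Each is a gene of 1 exon on chromosome 17 (GRCm38, GENCODE M21), at chr17:34969190-34972156 and chr17:34956436-34959238. Reads from copies this alike can be dropped or misassigned between them, so the split of counts between Hspa1a and Hspa1b is uncertain. The Hspe1 and Hspd1 lines are the same bases read on opposite strands. These genes face away from each other on chromosome 1, and their exons overlap by 112 bases. The window lies within an annotated exon.

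Libraries held 13996288 to 19512755 counts, and 13825 genes were tested. CPM below are counts scaled to the library total, corrected by its TMM factor, and log2 fold changes compare fish oil/pectin with corn oil/cellulose by edgeR's quasi-likelihood test with name form as a covariate, adjusted by Benjamini-Hochberg over all 13825 genes with a threshold of 0.05. Colonocyte marker genes summed to 19354 to 33799 CPM and fibroblast markers to 0 to 5.10 CPM. The endothelial gene Cdh5, the smooth muscle gene Cnn1 and the glial gene Sox10 had 0 counts in every library. T cell markers were present, at 13.4 to 85.2 CPM in sum.

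Of the 39 members tested, 25 were higher and 2 lower, and 12 did not pass. Over all genes, 22.1% were called higher and 20.6% lower. Higher calls made up 51.7% of all calls, and 37.8% with total-count scaling, under which 22 members were higher and 3 lower. All 8 CCT/TRiC members and all 5 prefoldin members were called higher, as were 4 of 4 mitochondrial chaperones and 8 of 12 constitutive cytosolic genes, with 1 more constitutive gene lower. Of 8 stress-induced chaperones 0 were higher and 1 lower, and neither heat shock factor was called. Differences between classes were not tested. The members' median log2 fold change was 0.29, beside -0.0053 for all genes, and the median size of a called change over all genes was 0.36. Medians by class were 0.45 for prefoldin, 0.36 for CCT/TRiC, 0.35 for mitochondrial, 0.25 for constitutive and -0.05 for stress-induced chaperones. The stress-induced median depended on the fit. It was -0.18 in GC-named libraries alone (constitutive 0.23) and 0.28 in the others alone (constitutive 0.25). Without a name-form term it was 0.10 (constitutive 0.26). With a score of non-epithelial marker genes as a covariate, both medians were 0.29. In bulk RNA, a change in the share of a cell type and a change in RNA per cell cannot be told apart.

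**Figure D1:**
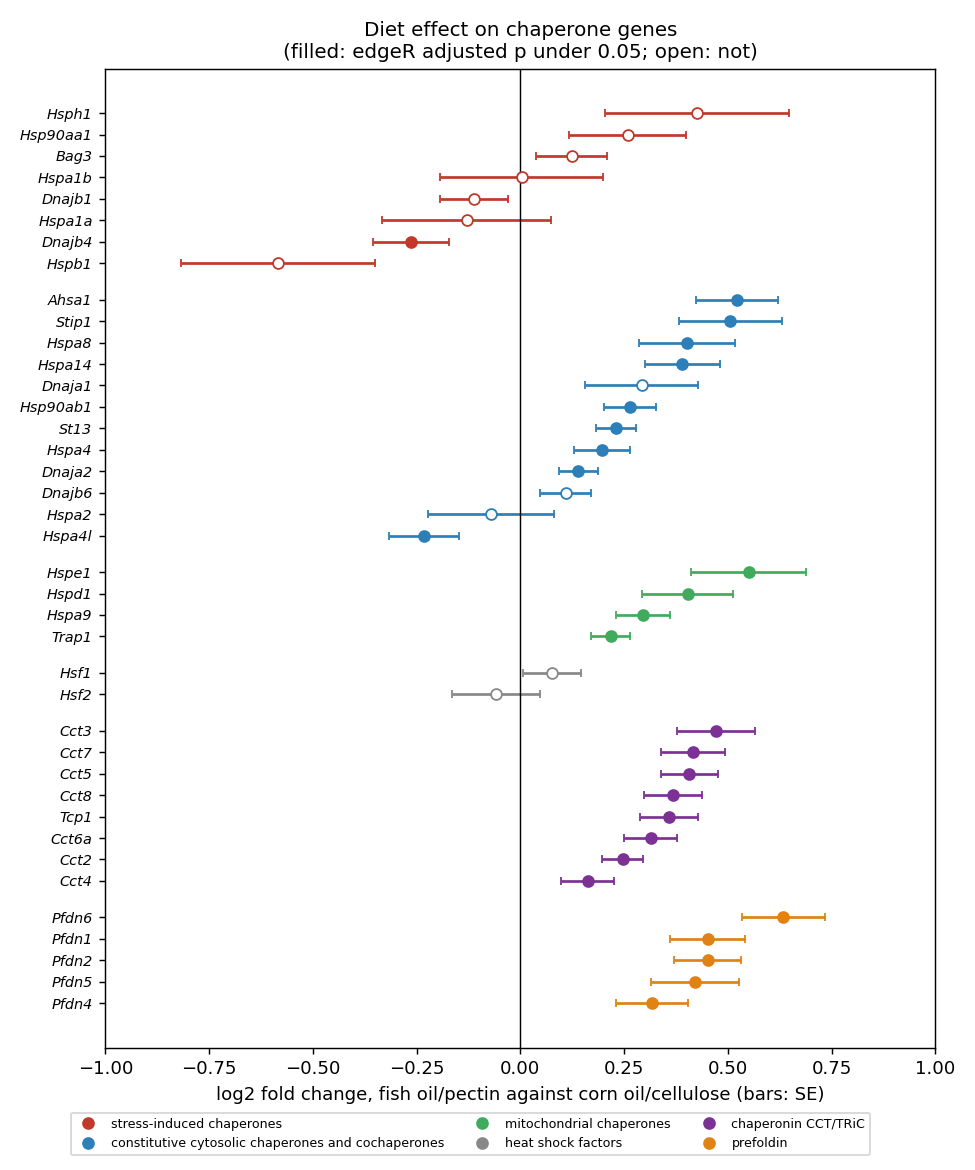
Log2 fold change, fish oil/pectin against corn oil/cellulose, for the 39 tested members by class, with standard errors as bars. Filled points passed the adjusted p of 0.05. All CCT/TRiC, prefoldin and mitochondrial points lie to the right of 0, while the stress-induced points lie on both sides.

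Among stress-induced chaperones, Hspa1a encodes the inducible cytosolic Hsp70. It ranged from 0.685 through a median of 115 to 183 CPM on corn oil/cellulose and from 1.43 through 95.0 to 208 CPM on fish oil/pectin. Within each diet the libraries split into a very low and a high set, and the diets overlapped. The log2 fold change was -0.13 ± 0.20 (SE; adjusted p = 0.639). Hspa1b, its near-identical neighbour, ranged from 4.11 through 173 to 248 CPM and from 5.68 through 141 to 273 CPM. It showed the same split, with a log2 fold change of 0.00 ± 0.20 (adjusted p = 0.990). Hspb1, the small heat shock protein Hsp27, was scarce, at 0.0685 to 3.36 CPM (median 1.78) and 0.0552 to 2.01 CPM (median 1.13). Its log2 fold change of -0.58 ± 0.23 had an adjusted p of 0.0512. Hspb1 had only 1 to 63 reads per library, and it passed with median-ratio scaling (-0.60, adjusted p = 0.0470), with total-count scaling (-0.69, adjusted p = 0.0257) and with a trend with exon length removed (-0.86, adjusted p = 0.00903). It also passed without replicate 4, 5 or 7 of corn oil/cellulose or replicate 4 of fish oil/pectin (-0.60 to -0.71), and had -0.39 (adjusted p = 0.173) without replicate 8 of corn oil/cellulose.

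Dnajb1, the inducible J-domain partner of Hsp70, had 51.2, 92.6 and 114 CPM (lowest, median, highest) on corn oil/cellulose and 53.9, 82.0 and 114 CPM on fish oil/pectin. The groups covered nearly the same range (log2 fold change -0.11 ± 0.08, adjusted p = 0.291). Hsph1, the Hsp110 that exchanges nucleotide on Hsp70, had 35.3, 62.6 and 90.5 CPM against 57.9, 72.4 and 206 CPM. Replicate 7 of fish oil/pectin gave the 206, and the other 6 libraries of that diet lay at or under 93.3 CPM. The log2 fold change of Hsph1 was 0.43 ± 0.22 (adjusted p = 0.132), and 0.16 (adjusted p = 0.409) without that library. Hsp90aa1, the inducible cytosolic Hsp90, had 77.8, 134 and 163 CPM against 109.5, 152 and 238 CPM. Its groups overlapped and its log2 fold change was 0.26 ± 0.14 (adjusted p = 0.150). For Hsp90aa1 the value was 0.14 (adjusted p = 0.382) without replicate 7 of fish oil/pectin and 0.33 (adjusted p = 0.0481) without replicate 4. Fitted alone, the libraries without the GC prefix gave Hsp90aa1 0.66 (adjusted p = 0.0309) and the GC-named libraries 0.02 (adjusted p = 0.933).

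Bag3, a cochaperone that links Hsp70 to selective autophagy, had 56.7, 66.1 and 74.3 CPM against 62.7, 66.9 and 99.3 CPM, a log2 fold change of 0.12 ± 0.09 (adjusted p = 0.254). The medians differed by less than the spread within either diet. Dnajb4 is another J-domain protein of the cytosol. It was the only stress-induced member called, with 14.6, 17.7 and 20.9 CPM against 11.7, 13.9 and 16.9 CPM. It fell by 0.26 ± 0.09 on the log2 scale (adjusted p = 0.0278), although the ranges overlapped. The call was lost without replicate 6 (-0.24, adjusted p = 0.0537) or replicate 2 (-0.20, 0.0858) of fish oil/pectin and without replicate 5 of corn oil/cellulose (-0.23, 0.0595). Dnajb4 also lost it with the exon-length trend removed (-0.088, adjusted p = 0.507), with no filter on low counts (-0.26, 0.0563) and in the GC-named (-0.19, 0.210) or other libraries (-0.42, 0.0789) alone. The remaining member, Hspb8, reached at most 0.535 CPM and was not tested.

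**Figure D2:**
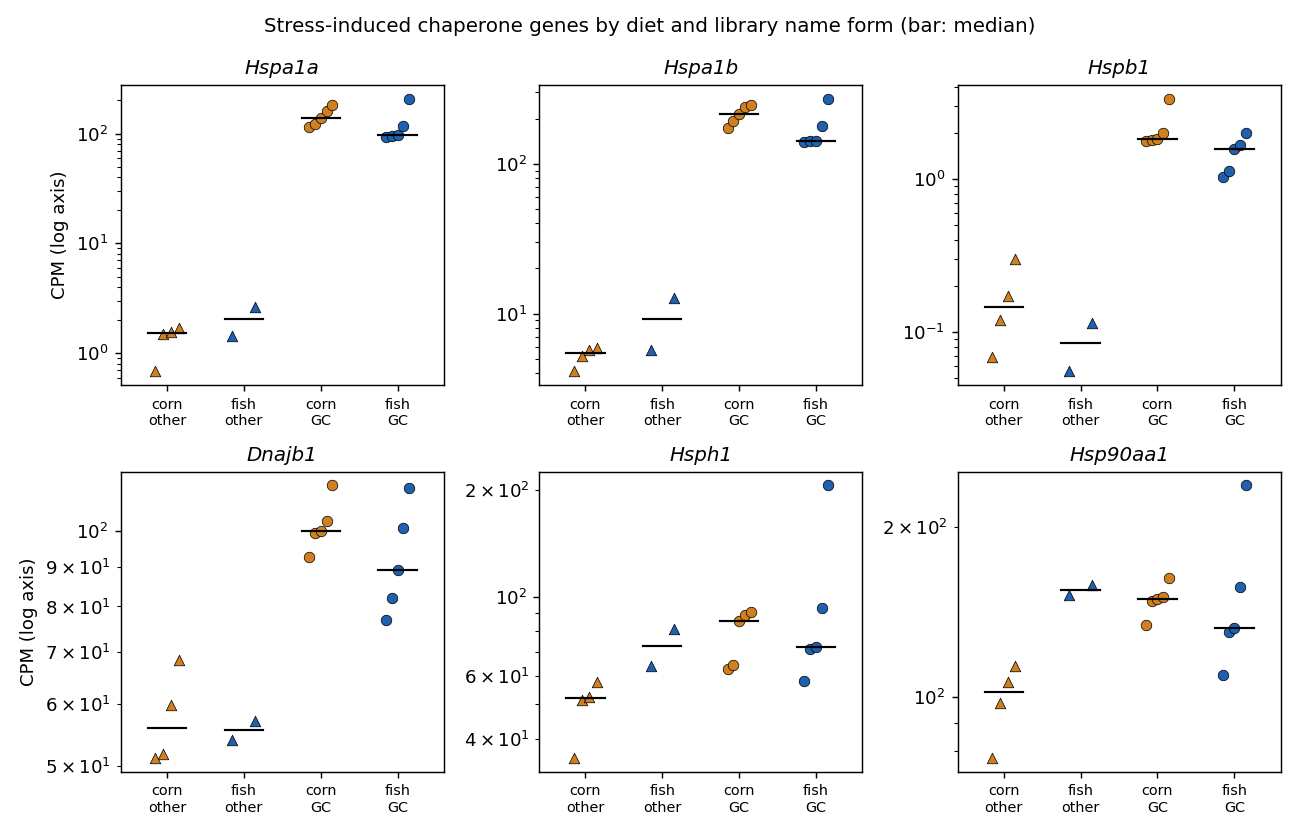
CPM on log axes for 6 stress-induced genes, with corn oil/cellulose in orange, fish oil/pectin in blue, GC-named libraries as circles, the others as triangles and medians as bars. Hspa1a, Hspa1b and Hspb1 separate by name form with no overlap, whereas the diets overlap among the GC-named libraries.

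Among constitutive cytosolic chaperones, 8 of 12 were higher and 1 lower. Ahsa1, which stimulates the ATPase of Hsp90, had 58.0, 72.1 and 87.3 CPM (lowest, median, highest) on corn oil/cellulose and 92.6, 96.9 and 163 CPM on fish oil/pectin. All fish oil/pectin libraries lay above all corn oil/cellulose libraries, and Ahsa1 rose by 0.52 ± 0.10 on the log2 scale (adjusted p = 0.000862). St13 (Hip), which holds Hsp70 in its substrate-bound state, had 142, 155 and 167 CPM against 173, 180 and 193 CPM. It too showed no overlap, with a log2 fold change of 0.23 ± 0.05 (adjusted p = 0.00146). Hspa14, a ribosome-associated Hsp70, had 32.4, 37.6 and 43.9 CPM against 42.7, 46.9 and 70.3 CPM. The ranges overlapped slightly, and the log2 fold change was 0.39 ± 0.09 (adjusted p = 0.00262). Hsp90ab1, the constitutive cytosolic Hsp90, had 1423, 1626 and 1742 CPM against 1797, 1857 and 2264 CPM. The groups were again separate (log2 fold change 0.26 ± 0.06, adjusted p = 0.00297). The share of all genes that separate by diet was not counted, so separation here and in later classes has no share beside it.

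A further 4 constitutive genes were called higher. Stip1 (Hop), which passes clients from Hsp70 to Hsp90, rose by 0.51 on the log2 scale (adjusted p = 0.00426). Hspa8, the constitutive counterpart of Hspa1a, had 775, 901 and 1177 CPM against 852, 1296 and 2160.2 CPM, a log2 fold change of 0.40 ± 0.12 (adjusted p = 0.0102). The J-domain protein Dnaja2 (0.14, adjusted p = 0.0246) and the nucleotide exchange factor Hspa4 (0.20, adjusted p = 0.0269) passed by small margins. Dnaja2 lost the call without replicate 6 of fish oil/pectin (adjusted p = 0.0609), and narrowly lost it without replicate 7. Hspa4 lost it without replicate 1, 2 or 7 of fish oil/pectin or replicate 9 of corn oil/cellulose, with adjusted p of 0.0549, 0.0750, 0.0564 and 0.0559. Total-count scaling gave Dnaja2 0.068 (adjusted p = 0.201) and Hspa4 0.13 (0.166), and removal of the exon-length trend gave Dnaja2 0.056 (0.276). Alone, the GC-named libraries gave Hspa4 0.098 (0.385) and the others gave Dnaja2 0.059 (0.638). Hspa4l, an Hsp110 relative of Hspa4, fell by 0.23 on the log2 scale (adjusted p = 0.0340), and lost the call without any of replicates 6, 7 and 8 of corn oil/cellulose or 4, 5 and 6 of fish oil/pectin. Not passing were Dnaja1 (0.29, adjusted p = 0.0908), Dnajb6 (0.11, adjusted p = 0.161) and Hspa2 (-0.07, adjusted p = 0.734). Dnaja1 (0.48, adjusted p = 0.0273) and Dnajb6 (0.20, 0.0195) passed with the exon-length trend removed, and Dnaja1 had 0.12 (0.200) without replicate 7 of fish oil/pectin.

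Per kilobase of the principal transcript, Hsp90ab1 (mean 633 CPM per kb on corn oil/cellulose, 769 on fish oil/pectin) and Hspa8 (391.5 and 553) were the most abundant members. Hsp90aa1 made up 3.94 to 7.45% of the per-kilobase level of Hsp90aa1 and Hsp90ab1 on corn oil/cellulose and 4.33 to 7.46% on fish oil/pectin. The mRNA of the cytosolic Hsp90s was therefore mostly that of Hsp90ab1 in every library. Hspa1a and Hspa1b together made up 18.3 to 26.7% of the per-kilobase level of Hspa1a, Hspa1b and Hspa8 in GC-named corn oil/cellulose libraries and 11.8 to 15.9% in GC-named fish oil/pectin libraries. In libraries without the prefix the same share was 0.521 to 0.732% and 0.700 to 1.33%. The shares of the GC-named libraries did not overlap between diets. The ratio was chosen after its values were seen and was not tested. If reads matching both Hspa1a and Hspa1b were dropped, these shares are too low, and no source used here gives that setting.

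The 4 mitochondrial chaperones all passed. Hspa9, the matrix Hsp70 that pulls in imported chains, had 456, 500.3 and 547 CPM on corn oil/cellulose and 534, 628 and 720 CPM on fish oil/pectin. It rose by 0.30 ± 0.06 on the log2 scale (adjusted p = 0.00188). Hspd1 (Hsp60), the chamber itself, had 241, 281 and 334 CPM against 306, 377 and 551 CPM, and rose by 0.40 ± 0.11 (adjusted p = 0.00743). Hspe1 (Hsp10), the lid, had 27.8, 49.8 and 61.8 CPM against 47.2, 61.2 and 131 CPM, and rose by 0.55 ± 0.14 (adjusted p = 0.00471). Trap1, the mitochondrial Hsp90, had 141, 159 and 174 CPM against 168, 181 and 210.4 CPM, with a log2 fold change of 0.22 ± 0.05 (adjusted p = 0.00185). For all 4 the ranges of the diets overlapped. Hspd1 (0.29, adjusted p = 0.118) and Hspe1 (0.47, adjusted p = 0.0702) did not pass when the GC-named libraries were fitted alone. Hspe1 (0.34, adjusted p = 0.0524) and Trap1 (0.11, adjusted p = 0.0642) did not pass once a trend with exon length was removed.

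The heat shock factors, which switch on the inducible set, gave no call in the pooled fit. Hsf1 had 32.4, 40.5 and 45.4 CPM on corn oil/cellulose and 38.2, 41.7 and 52.4 CPM on fish oil/pectin, a log2 fold change of 0.08 ± 0.07 (adjusted p = 0.395). Hsf2 had 7.40, 9.81 and 12.8 CPM against 6.02, 8.29 and 12.3 CPM, a log2 fold change of -0.06 ± 0.11 (adjusted p = 0.688). The ranges overlapped for either gene, with those of Hsf1 higher on fish oil/pectin at both ends. With the exon-length trend removed Hsf1 passed (0.20, adjusted p = 0.0298), and with total-count scaling it had 0.0044 (0.968). These are mRNA levels, and factor activity was not measured.

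CCT/TRiC, whose rings each hold the products of all the subunit genes, had all 8 subunits called higher on fish oil/pectin. Cct5 had 256, 287 and 314 CPM (lowest, median, highest) on corn oil/cellulose and 334, 369 and 479 CPM on fish oil/pectin. No library overlapped, and Cct5 rose by 0.41 ± 0.07 on the log2 scale (adjusted p = 0.000590). Cct7 had 169, 190 and 210.03 CPM against 213, 245 and 344 CPM, and rose by 0.42 ± 0.08 (adjusted p = 0.000771). Cct8 had 162, 184 and 208 CPM against 214, 226 and 307 CPM, and rose by 0.37 ± 0.07 (adjusted p = 0.000925). Tcp1, the founding subunit, had 229, 256 and 282 CPM against 288, 319 and 412 CPM, and rose by 0.36 ± 0.07 (adjusted p = 0.00101). For Cct7, Cct8 and Tcp1 as well, the lowest fish oil/pectin library lay above the highest corn oil/cellulose library.

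The other 4 subunits had log2 fold changes of 0.16 to 0.47, with Cct3 at 0.47, Cct6a at 0.31, Cct2 at 0.25 and Cct4 at 0.16. Cct4 was the weakest (adjusted p = 0.0457). Its call was lost when any of 11 of the 16 libraries was left out, with the fold change between 0.12 and 0.17 in those fits. The other 7 subunits kept theirs whichever library was left out. Per kilobase, the mean level of the subunits over all libraries ran from 64.3 CPM per kb for Cct6a to 179 for Cct5. The mRNAs of a complex with equal parts thus differed in level by more than they differed between diets.

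Prefoldin gave the largest class median, at 0.45 in the pooled fit. With the exon-length trend removed its median was 0.22, below those of the constitutive (0.32), CCT/TRiC (0.30) and mitochondrial (0.30) genes, and when only libraries without the GC prefix were fitted it was 0.25 beside 0.48 for the mitochondrial genes. Pfdn6 had 30.6, 41.5 and 48.0 CPM on corn oil/cellulose and 41.5, 67.3 and 105 CPM on fish oil/pectin. It had the largest log2 fold change of all members, 0.63 ± 0.10 (adjusted p = 0.000498), with overlap at the low end of fish oil/pectin. Pfdn2 had 26.4, 29.0 and 35.1 CPM against 33.4, 41.8 and 57.9 CPM, and rose by 0.45 ± 0.08 (adjusted p = 0.000718). Pfdn1 had 45.8, 54.5 and 61.5 CPM against 52.1, 81.4 and 108 CPM, and rose by 0.45 ± 0.09 (adjusted p = 0.00114). Pfdn5 had 106, 121 and 139 CPM against 98.8, 186 and 228 CPM, and rose by 0.42 ± 0.11 (adjusted p = 0.00466). For Pfdn1, Pfdn2, Pfdn5 and Pfdn6 the fish oil/pectin libraries that reached into the corn oil/cellulose range were among those without the GC prefix. Pfdn4 rose by 0.32 (adjusted p = 0.00776), and 0.20 (adjusted p = 0.0625) with the exon-length trend removed. Vbp1, the remaining prefoldin subunit and not one of the 40, had 0.13 ± 0.06 (adjusted p = 0.0944).

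**Figure D3:**
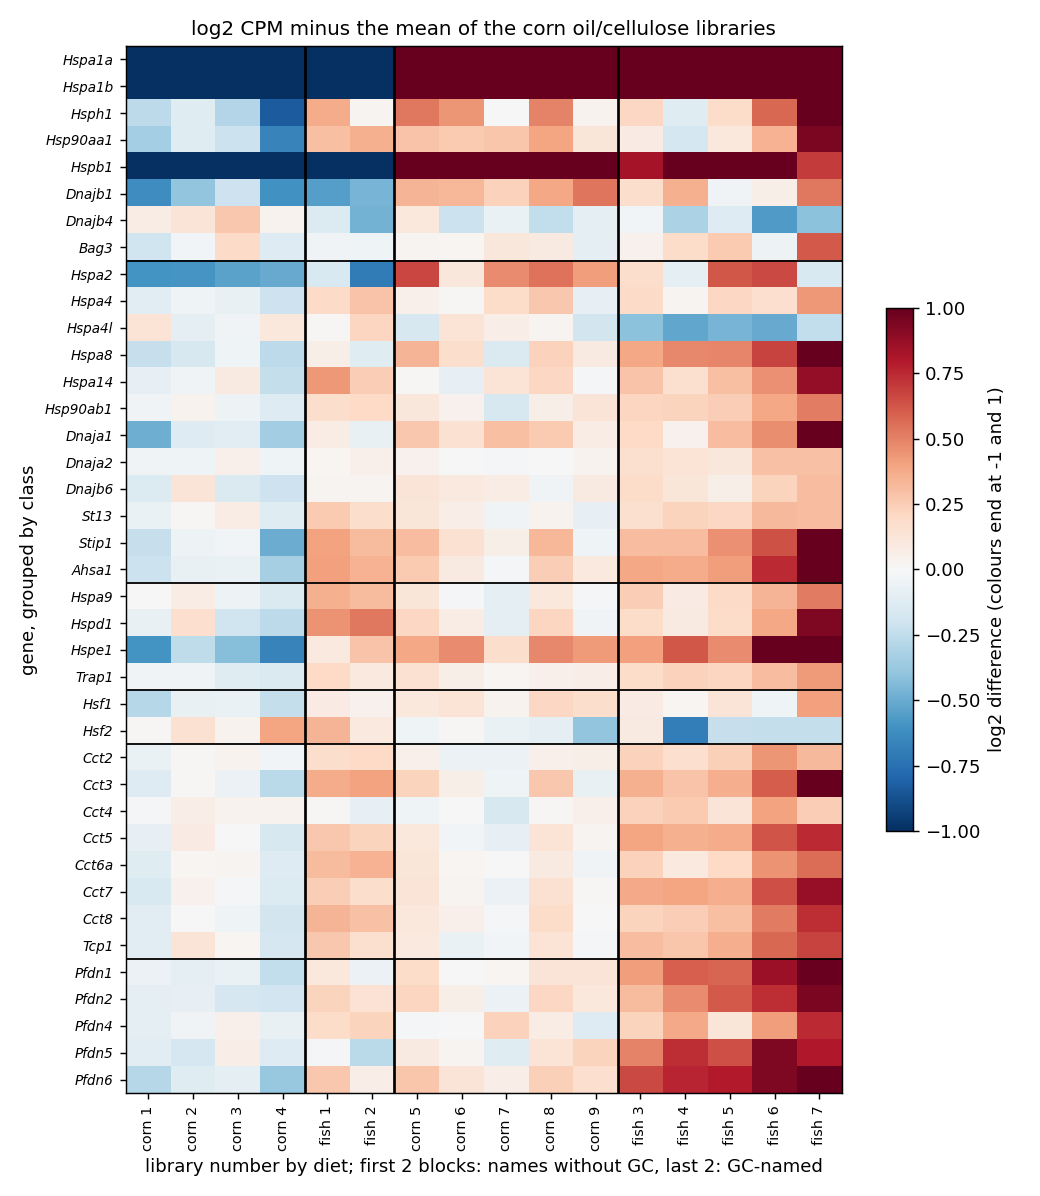
Log2 CPM of each tested member (rows, by class) in each library (columns, by name form and diet) minus the mean of the corn oil/cellulose libraries, with colours ending at -1 and 1. Hspa1a, Hspa1b and Hspb1 follow the name form, while CCT/TRiC and prefoldin are redder in the fish oil/pectin libraries and reddest in replicates 6 and 7.

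Of 8 stress-induced genes, 4 were called higher in GC-named libraries: Hspa1a, Hspa1b, Hspb1 and Dnajb1. The test of name form was added after the data were seen, with diet in the model. Hspa1a lay between 0.685 and 2.64 CPM in the 6 libraries without the prefix and between 93.1 and 208 CPM in the 10 GC-named libraries. That 83.2-fold difference (log2 6.38 ± 0.28, edgeR adjusted p = 1.43e-10) ranked 2 by size among the 13825 genes. Hspa1b went from 4.11 to 12.8 CPM up to 140.1 to 273 CPM, a 29.5-fold difference (log2 4.88 ± 0.26, adjusted p = 3.00e-09) of rank 4. Hspb1 went from 0.0552 to 0.301 CPM up to 1.03 to 3.36 CPM, a 13.0-fold difference (log2 3.70 ± 0.31, adjusted p = 2.54e-07) of rank 13. No library of either form overlapped the other for Hspa1a, Hspa1b or Hspb1. How many of the 13825 genes separate by name form in this way was not counted.

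Dnajb1 was 1.72-fold higher in GC-named libraries (log2 0.79 ± 0.09, adjusted p = 7.12e-06), with 51.2 to 68.3 CPM against 76.8 to 114 CPM and no overlap. Hsph1 (0.59 ± 0.23, adjusted p = 0.0537) and Hsp90aa1 (0.34 ± 0.15, adjusted p = 0.0694) did not pass, nor did Bag3 (0.15, adjusted p = 0.197) and Dnajb4 (-0.14, adjusted p = 0.249). In all, 17 of 39 members were higher and 2 lower in GC-named libraries, beside 20.4% and 20.8% of all genes. The 2 lower were Hspa4l and Hsf2. Outside the stress-induced class, the largest differences by name form were those of Hspa2 (log2 0.88), Hspe1 (0.80) and Pfdn6 (0.54). CCT/TRiC had 1 of 8 subunits called and a median of 0.13.

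Immediate early genes, which are switched on within minutes of stimulation and include Fosb and Dusp1, were also higher in GC-named libraries. Their sum was 916 to 1107 CPM without the prefix and 2309 to 3888 CPM in GC-named libraries, and 12 of 12 were higher by name form. By diet, 7 of the 12 were lower on fish oil/pectin and none higher, beside 1 of 8 stress-induced chaperones lower. T cell markers were also higher by name form for 7 of 9 tested, with sums of 13.4 to 20.1 CPM against 21.8 to 85.2 CPM. The part of these genes and cells in the chaperone difference was not tested.

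Within the GC-named libraries of a joint fit, 23 of 39 members were higher on fish oil/pectin and 1 lower, beside 23.5% and 22.3% of all genes. The calls covered 8 of 8 CCT/TRiC, 5 of 5 prefoldin, 3 of 4 mitochondrial and 7 of 12 constitutive genes, and 0 of 8 stress-induced genes. The lower member was Hspa4l. Within the 6 other libraries 0% of genes were called in either direction. At an unadjusted p under 0.05, 22 of 39 members and 2356 of all genes differed there, and DESeq2 was run only on the pooled libraries. Fitted alone with their own dispersion, these 6 libraries gave 13 members higher, 1 of them stress-induced (Hsp90aa1), beside 571 of all 13825 genes. Their 2 fish oil/pectin libraries limit the precision.

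The diet effect itself differed between name forms for 3 of 39 members, a share close to the 8.77% of all genes. Pfdn5 rose by 0.66 in GC-named libraries and had -0.05 in the others, a difference of 0.71 ± 0.15 (adjusted p = 0.0176). In CPM, Pfdn5 was 109 to 139 against 169 to 228 in GC-named libraries and 106 to 125 against 98.8 to 118 in the others. The diets separated in the GC-named set and overlapped in the other. Cct4 had 0.28 and -0.07 (difference 0.35 ± 0.10, adjusted p = 0.0399), and Hspa4l had -0.41 and 0.09 (difference -0.50 ± 0.13, adjusted p = 0.0329). Without replicate 2 of fish oil/pectin, none of these differences passed, with adjusted p of 0.158 for Pfdn5, 0.245 for Cct4 and 0.230 for Hspa4l. Hspa1a (-0.24 and 0.54, difference adjusted p = 0.441) and Hspa1b (-0.29 and 0.81, difference adjusted p = 0.0949) had opposite signs in the name forms, without a difference that passed.

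**Figure D4:**
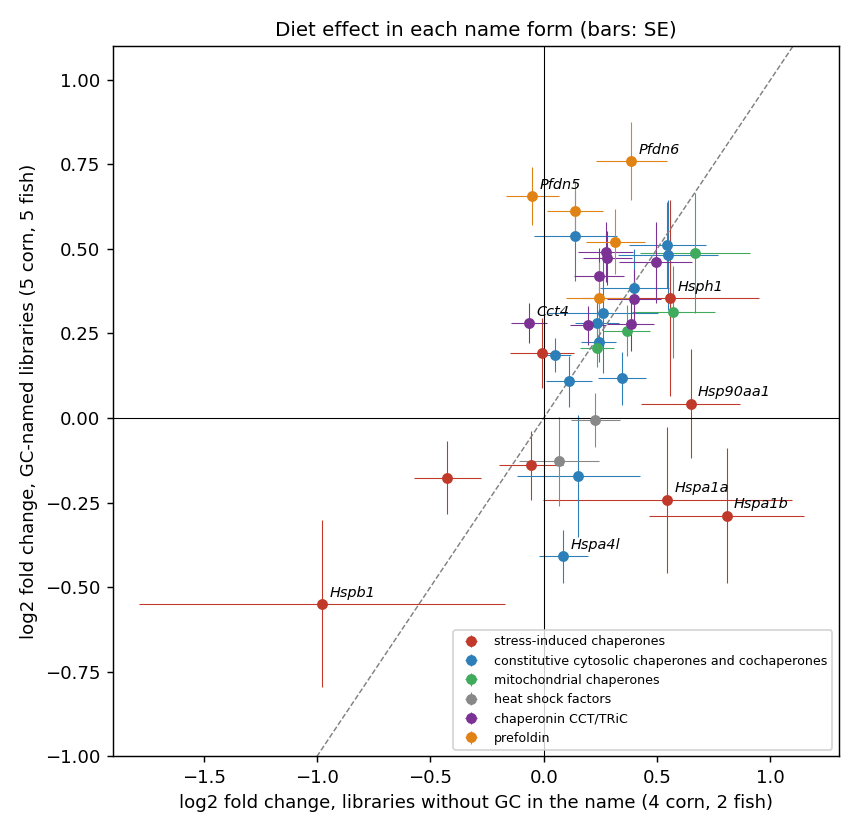
Log2 fold change by diet in GC-named libraries (vertical) against libraries without the prefix (horizontal) for 39 members, with standard errors, classes by colour and the line of equality dashed. Pfdn5, Cct4 and Hspa4l, whose differences between name forms passed, lie off the line. Hspa1b and Hspa1a lie farther off it, with differences of -1.09 and -0.79 that did not pass. Most CCT/TRiC and mitochondrial points are positive on both axes, and the axes differ in scale.

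Replicate 7 of fish oil/pectin had the highest level of all 16 libraries for 29 of the 40 members, among them 6 of 8 CCT/TRiC and 4 of 4 mitochondrial genes, and replicate 6 for 4 more. How often replicate 7 was highest over all genes was not counted, so 29 of 40 has no share to stand beside. The TMM factor of replicate 7, 0.897, was the lowest of the 16. Without replicate 7, 22 members were called higher, and without replicates 6 and 7 together 22. ER chaperones summed to 9228 CPM in replicate 7, against 3216 to 5913 CPM in all other libraries, and S phase genes to 1202 CPM. The cytosolic and mitochondrial members were thus not alone in peaking there.

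Further genes of the same pathways were counted from lists. ER chaperones were higher for 11 of 14 and lower for none, with Pdia3 at a log2 fold change of 0.43, Calr at 0.57 and Sdf2l1 at 0.99. Other mitochondrial chaperones and proteases were higher for 8 of 11, led by the nucleotide exchange factor Grpel1 (0.47), Dnajc15 (0.53) and the protease Clpp (0.47). Other Hsp90 cochaperones were higher for 9 and lower for 2 of 15, with the kinase-specific Cdc37 at 0.42, Sugt1 at 0.38 and Tsc1 at -0.46. Other Hsp70, J-domain and exchange factors were higher for 7 and lower for 2 of 20 tested, with the ubiquitin ligase Stub1 at 0.39, Hspbp1 at 0.48 and Dnajc2 at 0.44. Tubulin-folding, CCT-like and prefoldin-like genes were higher for 6 of 13, with Tbcb at 0.45, Tbca at 0.31 and Uxt at 0.43. Other small heat shock proteins and factors were higher for 3 of 5 tested, with Hsbp1, which binds heat shock factor 1, at 0.29, Hspb6 at 0.51 and Hspbap1 at 0.22.

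S phase genes also moved with diet, and colonocyte markers did so in the GC-named libraries. All 12 S phase genes were higher on fish oil/pectin (median 0.68), with sums of 469 to 714 CPM on corn oil/cellulose and 549 to 1202 CPM on fish oil/pectin. Colonocyte markers were higher for 6 of 12 by diet in the pooled fit, and by name form 9 of 12 were higher in GC-named libraries. There they summed to 22239 to 25306 CPM on corn oil/cellulose and 27950.0 to 33799 CPM on fish oil/pectin without overlap. In libraries without the prefix the sums were 19914.7 to 21369.2 CPM and 19353.7 to 19367.5 CPM, and the median log2 fold change was -0.069. The diet effect differed between name forms for 4 of the 12. Goblet cell markers were lower in GC-named libraries for 4 of 7. T cell markers were lower for 6 of 9 tested, and in GC-named libraries they summed to 38.1 to 85.2 CPM on corn oil/cellulose and 21.8 to 50.5 CPM on fish oil/pectin. With a score of 17 non-epithelial marker genes as a covariate, no member passed and 5 genes in all were higher and 22 lower, while 27 members were higher at an unadjusted p under 0.05, beside 4057 of all 13825 genes in either direction. Name form and diet together accounted for 0.786 of the variance of that score, and the median standard error of the members rose from 0.0867 to 0.130. The part of these cell populations in the chaperone result was not tested beyond that.

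Some counts could be shared with neighbours. The largest overlap was that of Dnaja1 exons with Smu1, Gm6297 and Mir207, 931 bases in all. Exons of Tcp1 overlap 3 genes by 850 bases, and those of Pfdn4 overlap Cyp24a1 and Gm16796 by 722. Those of Hspa1a overlap Gm20481 by 564 bases on the opposite strand. Those of Cct6a overlap Psph and Snora15 by 554 bases in all, and those of Pfdn2 overlap Klhdc9 by 535 on the opposite strand. Other members had smaller overlaps or none. The library kit keeps strand, but no source used here gives the counting setting.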

How the data were processed

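Raw read counts per gene symbol, not normalised, were deposited by the authors as 1 table with a column for each of the 16 libraries. STAR 2.6.0a, HTSeq 0.11.1 and GRCm38 are named in the submitters' processing notes, and no source used here gives the annotation release or strand setting. The labels call the libraries biological replicates, and no 2 of one diet were alike within sampling noise (chi-square per degree of freedom 8.20 to 141 over 57 pairs). Genes were filtered with filterByExpr by diet, leaving 13825 of 54392 with 99.9% of counts. TMM scaling and the robust quasi-likelihood test of edgeR 4.0.16 (R 4.3.3) were applied to name form plus diet. A joint fit gave the diet effect in each name form. The procedure was tested on simulated counts. Lengths, coordinates and exon overlaps came from GENCODE M21, and promoters from RefSeq (32 of 40 members matched).

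Members, classes and gene lists were chosen with earlier results of these data known. All stress-induced members and up to 4 of each other class with the lowest p were given in full, with up to 3 per list of further genes. Alternatives were other scalings (including DESeq2 1.42.0), no filter, no name-form term, a replicate block, each name form alone, removal of an exon-length trend, a non-epithelial score, and leaving out libraries. The test of name form and the leave-one-out fits of the difference between name forms were added after the data were seen.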

Additional observations from a re-analysis of the deposited data

Results flagged for a closer look

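In fish oil/pectin replicate 7, 5 members stood far above the other 6 libraries of that diet: Hsph1 at 205.6 CPM (others up to 93.3), Stip1 at 257 CPM (others up to 163), Dnaja1 at 142.5 CPM (others up to 81.7), Hspa14 at 70.3 CPM (others up to 52.4) and Hsf1 at 52.4 CPM (others up to 43.1). Cct4 in corn oil/cellulose replicate 7 stood below the rest of its diet, at 219 CPM against 237 to 256. Chance flags about 1 in 20 such groups. The 5 flags in fish oil/pectin replicate 7 come from 1 library and are not independent.

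The diet effect differed between GC-named libraries and the others for Hspa4l (difference in log2 fold change -0.50), Cct4 (0.35) and Pfdn5 (0.71), each by the interaction term of edgeR's joint fit. These 3 of 39 are close to the share over all genes, 8.77%, and none of the 3 passed without fish oil/pectin replicate 2.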

How the results depend on the processing

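Median-ratio scaling, DESeq2, no filter on low counts and no name-form term left the counts of members called higher within 1.5 times of the reported 25. Leaving out single libraries gave 22 to 26 members higher, 0 to 3 lower, and 2632 to 3095 genes higher and 2409 to 2905 lower in all. Of the 25 members called higher, 22 kept the call whichever library was left out, and Hspa4, Dnaja2 and Cct4 did not. With total-count scaling 37.8% of calls were higher, and with the exon-length trend removed 60.8%. The 6 libraries without the GC prefix, fitted alone, gave 13 members higher and 0 lower, with 571 genes higher and 289 lower. With the non-epithelial score, 0 members passed, with 5 genes higher and 22 lower in all. Removing the exon-length trend left 1769 genes lower. The members called lower numbered 1 with no filter, no name-form term, the GC-named libraries alone or the length trend removed, and 0 without fish oil/pectin replicates 6 and 7. The cause of these changes was not tested.

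The labels repeat replicate numbers across diets. Only 1 of 7 same-numbered libraries correlated best with its own number (correlations -0.29 to 0.41). That gave no evidence that the numbers pair the samples. It cannot exclude pairing, since libraries numbered 3 and 4 differ in name form between diets. With a replicate block, 1924 genes were higher and 1578 lower, and 20 members were higher and 1 lower. Hspa8, Hsp90ab1, Trap1, Dnaja2, Cct4 and Hspa4l lost their calls there, and Hspa1a (0.044) and Hspa2 (0.040) changed sign.

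Some log2 fold changes changed sign under single alternatives. Without a name-form term, Hspa1a had 0.12 and Hspa2 0.027. When only libraries without the GC prefix were fitted, Hspa1a had 0.56, Hspa2 0.16, Hspa4l 0.094, Hsf2 0.076, Cct4 -0.059 and Pfdn5 -0.043. With the non-epithelial score, Hspa1a had 0.65 and Dnajb1 0.040. Hspa1b had -0.0092 with median-ratio scaling, -0.081 with total-count scaling, -0.31 in the GC-named libraries alone, -0.095 without fish oil/pectin replicates 6 and 7, -0.11 with the length trend removed, and -0.22 to 0.076 when single libraries were left out. With the length trend removed, Hspa4l had 0.017 and Hsf2 0.14. Hsf1 had -0.025 in the GC-named libraries alone. Depth limits Hspb1 and leaves Hspb8 untested.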
